A study of Mus musculus with 79 samples.

Results

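Messenger RNA was measured in the medial prefrontal cortex (mPFC) and the ventral hippocampus (vHipp) of 40 male CD-1 mice, in 79 libraries. The 9 genes described here are myelin and oligodendrocyte genes, taken by symbol from a table of 55471 gene identifiers: Mbp, Mag, Mobp, Cnp, Cldn11, Mal, Opalin, Ermn and Pdgfra. All 9 were found, and all 9 passed the filter on low counts in every comparison. The list was set by gene name, with earlier results of these data known.

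All mice were wild type, and their age is given as 9 to 10 weeks, without the time point it refers to. They fell into 4 groups of 10 mice. CTRL mice were not stressed and received saline or ketamine. CSDS mice went through 21 days of a modified chronic social defeat stress, in which a mouse went back to its own group of cage mates after each defeat, and also received saline or ketamine. Ketamine was the racemic (R,S) form at 10 mg/kg, given as a single intraperitoneal injection, and tissue was taken 7 days later. Each group therefore had 10 libraries of each region, except for 9 mPFC libraries of CSDS mice given ketamine. Tissue came from small punches of frozen slices, so a library holds the RNA of all cell types in the punch, with the nearby white matter that the punch took in. In such bulk samples, fewer oligodendrocytes and less RNA per oligodendrocyte cannot be told apart. Libraries held between 11726129 and 41767119 counts. In each region, 1 library was less like the others than the rest, both from CSDS mice given ketamine. In the vHipp it was that of mouse 11 (median r of 0.963 with the other libraries over 15533 genes, where the next lowest had 0.976 and the median library 0.985), and in the mPFC that of mouse 1 (0.975, next lowest 0.981, median library 0.986). Group comparisons that they moved, and the relations of Pdgfra in the vHipp, are given with and without them. The social rank of each mouse is not in the sample labels and was not used.

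Myelin is the membrane sheath that oligodendrocytes wrap around axons, and it is dense in white matter tracts. Oligodendrocytes arise from precursor cells that remain in the adult brain. The precursors carry the growth factor receptor encoded by Pdgfra and lose it as they mature, while the genes of the myelin sheath are switched on by the transcription factors SOX10 and MYRF. Mbp encodes myelin basic protein, which compacts the sheath, and Mobp encodes another small protein of compact myelin. Mag encodes the adhesion protein on the side of the sheath that faces the axon. Cnp encodes an enzyme of the cytoplasmic channels of the sheath, and Cldn11 the claudin of its tight junctions. Mal encodes a proteolipid that sorts membrane in the sheath. Opalin and Ermn encode oligodendrocyte proteins, a glycoprotein of the paranodal loops and a protein bound to the actin skeleton. Pdgfra is also expressed in the fibroblast-like cells of blood vessels and meninges.

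The genes lie on 8 chromosomes of GRCm38. Mbp spans chr18:82475146-82585637, Mag chr7:30899176-30914873, Mobp chr9:120149707-120181484, Cnp chr11:100574904-100591729 and Cldn11 chr3:31149920-31164324. Mal spans chr2:127633226-127656695, Opalin chr19:41061710-41077113, Ermn chr2:58045113-58052864 and Pdgfra chr5:75152292-75198215. Exons of Cnp share 154 bases with exons of Dnajc7 on the opposite strand, which had 233086 counts over all libraries against 238100 for Cnp. A kit that keeps strand was used, but how strand was treated in counting is not given in the sources used here, so the Cnp level is the least certain of the 9.

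Because the first 8 genes rise and fall together across libraries, the promoters of 7 of them are given beside that of Pdgfra, which does not follow them. The sequences are RefSeq promoters on GRCm38.p6, 250 bases before to 50 after a transcript start, taken for 8 of the 9 genes. Mbp was left out before the search, so nothing is said here of its promoter. Capitals mark the core of SOX sites, searched as ACAAAG and ACAATG on both strands, and a MYRF motif, searched as CTGGCAC on both strands. A SOX core stood in 28.6% of all 32851 promoters of this length and a MYRF motif in 5.01%.

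Mag, chr7:30914814-30915113, minus strand: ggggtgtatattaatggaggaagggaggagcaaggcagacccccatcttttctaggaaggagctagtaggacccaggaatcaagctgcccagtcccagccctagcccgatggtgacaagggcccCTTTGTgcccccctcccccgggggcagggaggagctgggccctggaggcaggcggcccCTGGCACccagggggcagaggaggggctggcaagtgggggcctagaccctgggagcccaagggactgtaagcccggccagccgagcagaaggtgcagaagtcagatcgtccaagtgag
Mobp, chr9:120149492-120149791, plus strand: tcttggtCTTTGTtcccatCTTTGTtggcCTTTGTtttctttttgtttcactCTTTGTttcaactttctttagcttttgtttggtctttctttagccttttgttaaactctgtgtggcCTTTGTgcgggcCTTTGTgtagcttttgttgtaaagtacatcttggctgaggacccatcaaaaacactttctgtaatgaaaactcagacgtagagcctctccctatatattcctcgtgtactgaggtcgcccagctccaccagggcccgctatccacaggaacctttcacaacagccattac
Cnp, chr11:100574689-100574988, plus strand: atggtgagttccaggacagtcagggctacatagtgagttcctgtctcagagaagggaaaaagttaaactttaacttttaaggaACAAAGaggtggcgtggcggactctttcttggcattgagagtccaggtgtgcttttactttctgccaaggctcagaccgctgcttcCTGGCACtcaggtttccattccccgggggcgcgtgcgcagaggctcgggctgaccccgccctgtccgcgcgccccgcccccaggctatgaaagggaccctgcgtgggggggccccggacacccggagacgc
Opalin, chr19:41077064-41077363, minus strand: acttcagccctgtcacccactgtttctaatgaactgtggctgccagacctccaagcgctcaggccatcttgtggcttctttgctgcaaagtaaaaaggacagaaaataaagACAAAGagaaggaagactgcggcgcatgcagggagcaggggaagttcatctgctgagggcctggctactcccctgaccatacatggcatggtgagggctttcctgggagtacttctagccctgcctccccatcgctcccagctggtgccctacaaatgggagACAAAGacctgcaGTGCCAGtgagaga
Ermn, chr2:58052815-58053114, minus strand: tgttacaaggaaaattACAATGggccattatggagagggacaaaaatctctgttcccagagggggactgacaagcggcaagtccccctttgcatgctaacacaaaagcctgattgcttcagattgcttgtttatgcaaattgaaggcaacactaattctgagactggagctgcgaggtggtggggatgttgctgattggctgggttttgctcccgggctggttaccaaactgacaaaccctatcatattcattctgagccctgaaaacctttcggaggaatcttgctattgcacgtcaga
Cldn11, chr3:31149670-31149969, plus strand: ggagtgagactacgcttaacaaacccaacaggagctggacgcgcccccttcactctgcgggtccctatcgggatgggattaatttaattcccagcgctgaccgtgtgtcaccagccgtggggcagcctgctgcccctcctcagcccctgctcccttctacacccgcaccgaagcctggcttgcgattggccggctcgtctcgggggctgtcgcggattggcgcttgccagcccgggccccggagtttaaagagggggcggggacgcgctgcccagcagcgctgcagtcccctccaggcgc
Mal, chr2:127656646-127656945, minus strand: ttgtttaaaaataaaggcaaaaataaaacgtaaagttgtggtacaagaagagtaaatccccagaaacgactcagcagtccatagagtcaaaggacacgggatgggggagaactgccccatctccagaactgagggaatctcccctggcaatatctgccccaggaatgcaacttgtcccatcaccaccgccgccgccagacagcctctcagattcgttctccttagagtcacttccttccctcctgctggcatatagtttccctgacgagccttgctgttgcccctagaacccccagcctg
Pdgfra, chr5:75152001-75152300, plus strand: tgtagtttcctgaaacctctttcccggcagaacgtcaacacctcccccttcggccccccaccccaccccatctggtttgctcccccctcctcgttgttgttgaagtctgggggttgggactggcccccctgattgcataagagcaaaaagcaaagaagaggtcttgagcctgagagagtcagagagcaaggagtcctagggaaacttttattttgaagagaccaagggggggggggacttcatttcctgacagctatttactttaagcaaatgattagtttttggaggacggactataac

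The MYRF letters stood in the promoters of Mag, Cnp and Opalin, 3 of the 8 genes searched, Pdgfra included. A SOX core stood in 5 of the 8, the 4 printed first and Ermn. Mobp held 6 cores in a T-rich stretch, Opalin held 2, and the windows of Cldn11, Mal and Pdgfra held neither motif. These matches describe the letters of a short window only.

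Mbp was the most abundant of the 9 per length. In the vHipp its mean level was 125.4 ± 39.8 CPM, counts scaled to a common library total of 1e6, per kilobase of exon (SD, n = 40 libraries). Cnp (40.2 ± 11.5) and Mobp (36.4 ± 13.7) followed, and differed from each other by less than their spread. Mal (21.7 ± 8.86), Cldn11 (21.1 ± 8.65) and Mag (19.4 ± 6.33 CPM per kilobase) did not differ beyond their spread either. Ermn (7.25 ± 2.35), Pdgfra (5.66 ± 1.13) and Opalin (2.93 ± 1.35) were the lowest. In the mPFC the means per kilobase had the same order, from 114.2 ± 77.3 for Mbp to 3.56 ± 2.72 for Opalin (n = 39), with a wider spread.

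Libraries of the mPFC differed widely in the myelin genes. Mbp lay between 275 CPM (mouse 1) and 2903 CPM (mouse 22) in the mPFC, with a median of 720, a range of 10.6-fold. Mobp ran from 57.9 to 924 CPM around a median of 193, and Mal from 16.7 to 267 CPM around 49.4, a range of 16.0-fold for each. Of the 8 genes other than Pdgfra, Cnp had the narrowest range, 6.67-fold (63.1 to 421 CPM), and Cldn11 the widest, 18.6-fold (8.70 to 161 CPM). Mag (17.7 to 227 CPM), Opalin (2.05 to 36.3 CPM) and Ermn (5.42 to 89.8 CPM) lay between. The same mice stood at the ends for most genes: mice 22, 6 and 2 held the 3 highest mPFC libraries for 7 of the 8 genes, in some order, and mice 22 and 6 were among the 3 highest for Ermn too.

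In the vHipp the same genes varied less. Mbp lay between 515 CPM (mouse 7) and 1941 CPM (mouse 33), with a median of 1043.4, a range of 3.77-fold. Across the other 7 genes the range was between 3.11-fold (Cnp, 88.99 to 277 CPM) and 5.95-fold (Opalin, 3.74 to 22.3 CPM). Together, the 8 genes took between 0.0483% and 0.507% of all counts of an mPFC library (median 0.118%), and between 0.0795% and 0.326% of a vHipp library (median 0.162%).

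Pdgfra, the precursor gene, was steady by comparison. In the mPFC it ran from 44.2 CPM (mouse 25) to 91.02 CPM (mouse 30) around a median of 60.6, a range of 2.06-fold. In the vHipp it ran from 41.2 CPM (mouse 1) to 107.2 CPM (mouse 11) around a median of 55.2. Without mouse 11, the highest vHipp library had 73.0 CPM.

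**Figure D1:**
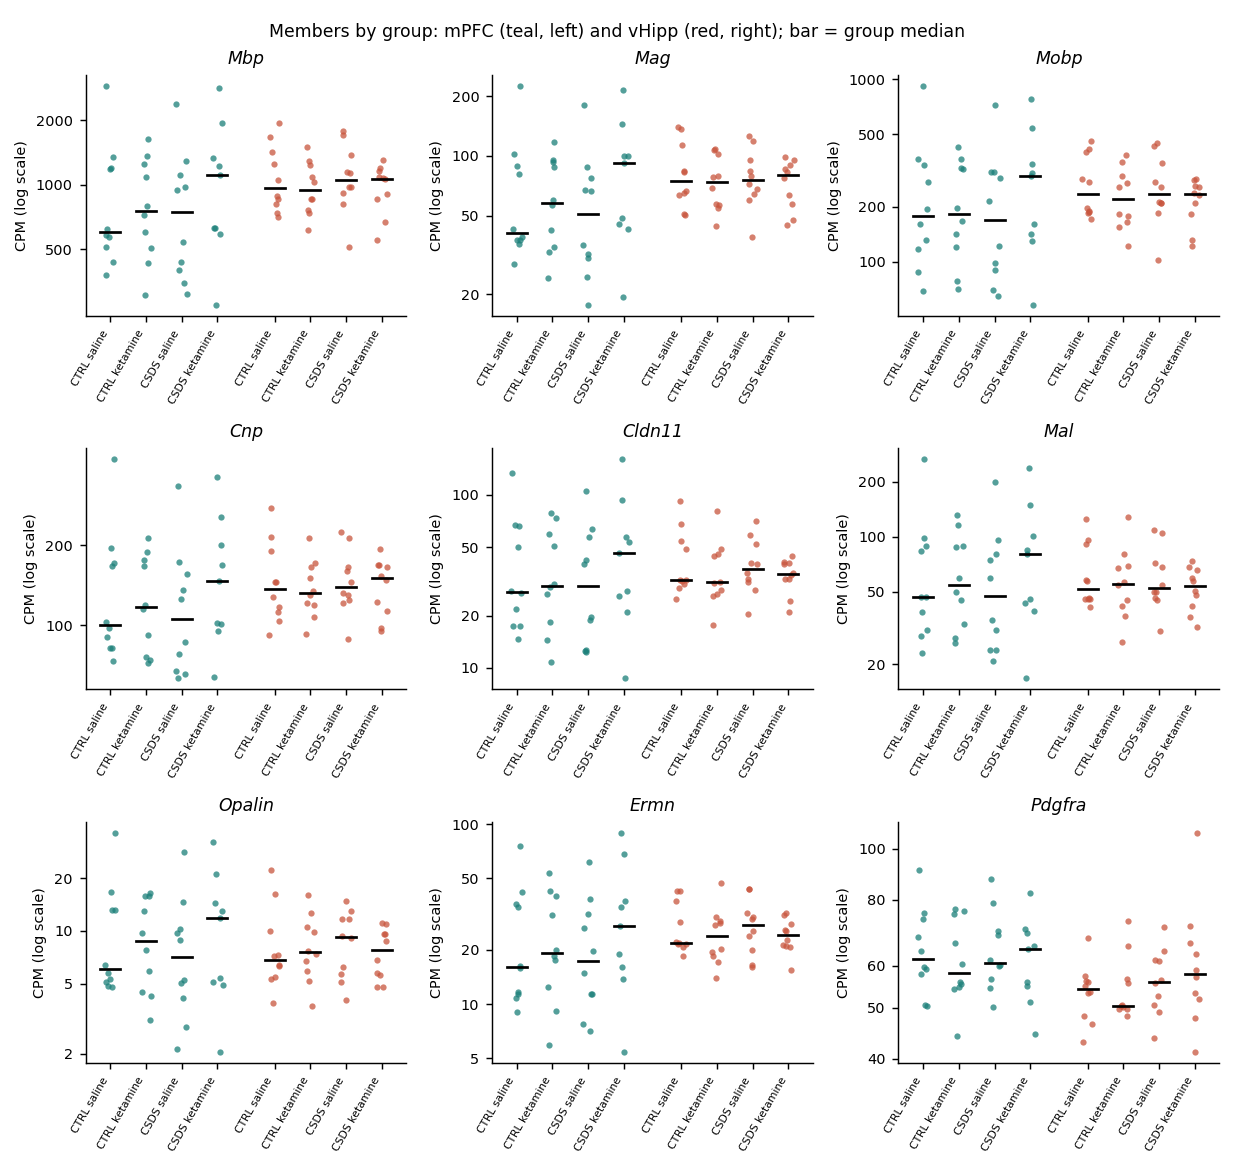
Level of each gene in CPM on a log scale, 1 point for each library, for the 4 groups of mPFC (teal) and of vHipp (red), with a bar at the group median. The groups overlap for all 9 genes, and the mPFC points of the 8 myelin genes reach both lower and higher than the vHipp points, as in Mbp with 275 to 2903 CPM against 515 to 1941 CPM.

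The spread was tested over the mice with both regions, and each of the 8 genes passed. For Mbp, the mean absolute deviation from the group mean was 0.758 in the mPFC and 0.374 in the vHipp on the log2 scale, and it was larger in the mPFC in 31 of 39 mice (two-sided permutation test by sign flips over mice, adjusted p = 3e-05 over 9 genes). Ermn had the widest gap, 0.852 against 0.368, again in 31 of 39 mice (adjusted p = 6.75e-05). For Opalin it was 0.821 against 0.483, in 30 of 39 mice, and for Cnp 0.599 against 0.318, in 29 of 39 (adjusted p = 0.000551 and 9e-05 in the same permutation test). Pdgfra gave 0.208 against 0.177, larger in the mPFC in 24 of 39 mice (permutation p = 0.343). This test was chosen after the values were seen. It was not run on other genes, so whether a wider spread in the mPFC is particular to these genes was not tested. The 8 genes move together across libraries, so their passes are not separate observations.

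The 8 genes moved as a unit from library to library. Pearson's r between 2 of them, on the scale of log2(CPM + 0.5), lay between 0.949 and 0.994 in the mPFC, with a median of 0.980 over 28 pairs, and between 0.842 and 0.979 in the vHipp, with a median of 0.923. Spearman's rho lay between 0.929 and 0.993 in the mPFC and between 0.824 and 0.973 in the vHipp. All 28 pairs passed in each region by both measures (adjusted p = 1.45e-05 over 81 relations, from 1e-05, the smallest p that 100000 permutations can give). The share of pairs of other genes that would pass was not computed, so this count alone does not set the 8 genes apart. Without the 2 libraries farthest from the median of the gene on the x axis, r was still at least 0.938 in the mPFC and 0.814 in the vHipp. Taking each library as its deviation from the group mean left r at 0.952 or more in the mPFC and 0.847 or more in the vHipp. Within the 5 sets of 8 mice with neighboring library numbers, the lowest r of any pair was 0.888 in the mPFC and 0.580 in the vHipp.

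Mbp and Mag, the closest pair, had r = 0.994 in the mPFC over 39 libraries (permutation p = 1e-05). The r of Mbp with log2 total counts, a measure of library depth, was 0.0497 in the mPFC and 0.102 in the vHipp.

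Pdgfra stood outside the unit. Its r with the 8 genes lay between 0.167 and 0.259 in the mPFC and between 0.0109 and 0.279 in the vHipp (0.0558 to 0.214 without the library of mouse 11). No relation of Pdgfra passed by Pearson's r (lowest adjusted p = 0.158 in the mPFC and 0.113 in the vHipp, permutation test). By Spearman's rho, the relation with Cnp in the mPFC passed (rho = 0.346, adjusted p = 0.0452), and the other 15 did not. Within sets, its r in the mPFC ran from -0.576 to 0.576.

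**Figure D2:**
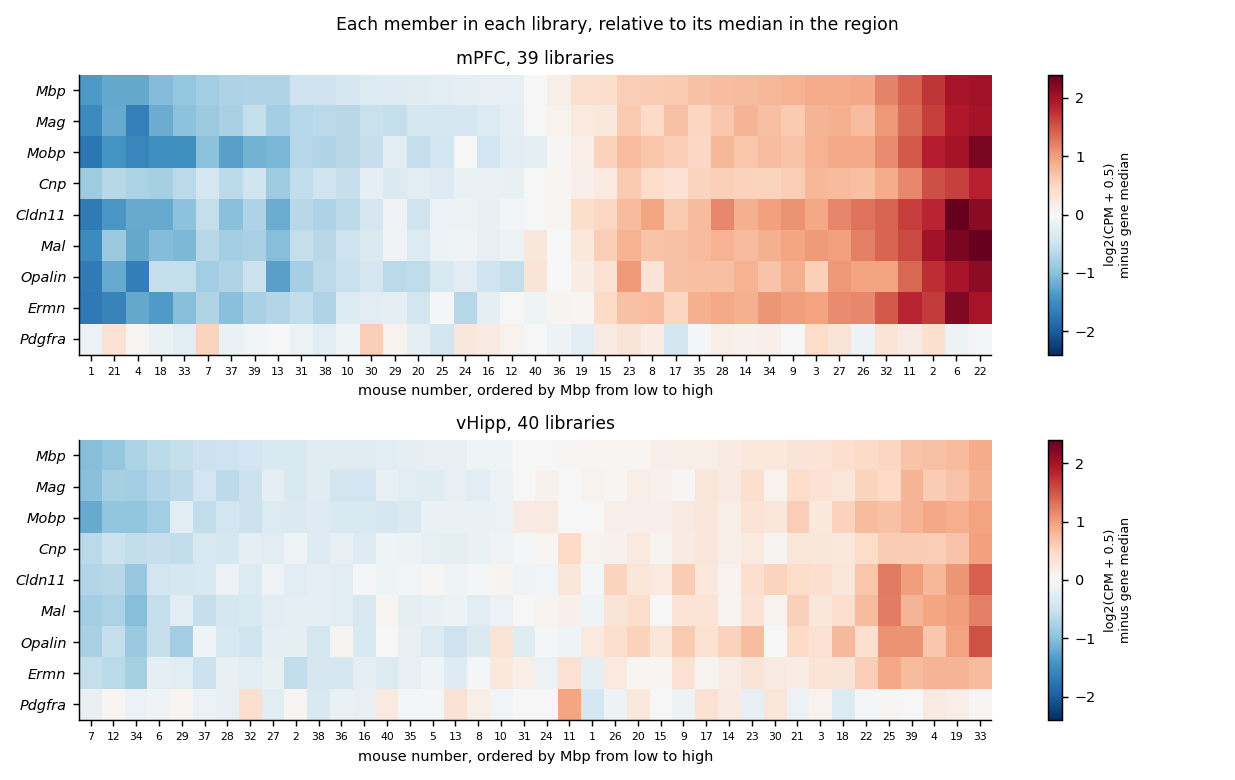
Heat map of log2(CPM + 0.5) minus the median of the gene in its region, with a column for each library, ordered by Mbp, and a row for each gene. The 8 upper rows turn from blue to red together, more deeply in the mPFC than in the vHipp, while the row of Pdgfra does not follow and shows mouse 11 as its highest vHipp library.

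**Figure D3:**
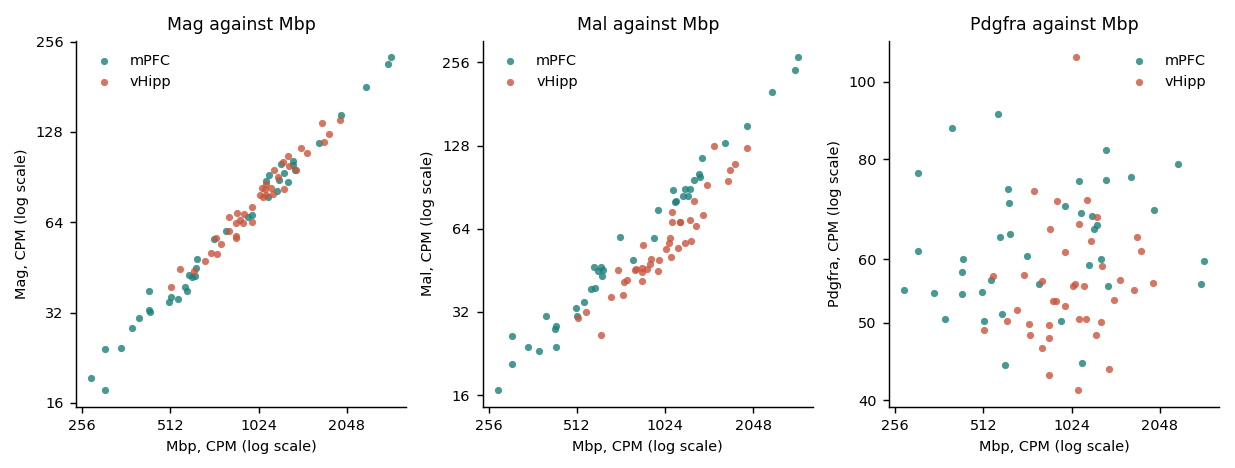
Mag, Mal and Pdgfra against Mbp, in CPM on log axes, 1 point for each library of mPFC (teal) and vHipp (red). Mag lies on a single line for both regions, Mal lies higher in the mPFC than in the vHipp at the same Mbp, and Pdgfra has no visible slope.

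In both regions the genes whose levels were closest to the mean of the 8 were led by other genes of mature oligodendrocytes. Among 15648 genes of the mPFC with a mean of at least 1 CPM, the 10 highest r included those of the surface glycoprotein Mog (0.992), the fatty acid hydroxylase Fa2h (0.992), Tmem88b (0.990) and the transcription factor Myrf (0.989), and of Gpr37, Bcas1, Nkx6-2 and Tspan2 (0.983). In the vHipp they included Mog (0.968), Tmem88b, Fa2h, Tmem63a, Plekhh1, the iron carrier Trf, the lysophosphatidic acid receptor Lpar1, the integrin Itgb4 and the plexin Plxnb3 (0.943). The median gene had r = 0.00803 in the mPFC and -0.0343 in the vHipp, and 197 and 78 genes exceeded 0.8. These values are a description over libraries that share their punches.

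Lists of other genes showed how far this unit extended. Of 29 further genes of mature oligodendrocytes, 28 reached 1 CPM, and their median r with the 8 was 0.975 in the mPFC and 0.876 in the vHipp. The 7 factors of the whole lineage had medians of 0.817 and 0.508, led by Sox10 with 0.962 and 0.874. The 12 precursor genes had medians of 0.300 and 0.177. Among the precursor genes, Enpp6, which marks cells on the way to making myelin, stood apart with 0.945 in the mPFC and 0.779 in the vHipp, while Cspg4, the NG2 proteoglycan, had -0.0149 and 0.282. Genes of cholesterol synthesis, a pathway that feeds the sheath, had medians of 0.107 and -0.0809, and the axonal partners of myelin at nodes and paranodes had 0.0271 and -0.190.

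Lists of other cell types had medians well under that of the mature genes. The median r with the 8 was 0.111 in the mPFC and 0.283 in the vHipp for 8 astrocyte genes, 0.0643 and 0.308 for 8 microglia genes, -0.0206 and 0.273 for 6 endothelial genes, and -0.0890 and -0.226 for 8 neuron genes. The 5 Schwann cell genes, which mark peripheral myelin, summed to at most 2.15 CPM in any library, and none had a mean of 1 CPM. The summed level of the 29 mature genes ran from 936 to 4346 CPM in the mPFC and from 1059.6 to 2746 CPM in the vHipp, while that of the 12 precursor genes ran from 198 to 291 CPM and from 138.9 to 339 CPM.

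Pdgfra had higher r with precursor, astrocyte, microglia and endothelial genes. Its 10 closest genes in the mPFC were led by Arhgap29 (r = 0.906), Slc7a2 (0.898) and Lima1 (0.887), and in the vHipp by Utrn (0.914), Ptprm (0.902) and the transcription factor Sox6 (0.900). Its median r was 0.474 in the mPFC and 0.722 in the vHipp over the 12 precursor genes, with Cspg4 at 0.829 and 0.841, and Vcan, an extracellular proteoglycan, at 0.740 and 0.868. The astrocyte list had higher medians, 0.783 and 0.772. The endothelial list had 0.616 and 0.581, and the microglia list 0.539 and 0.659, both above the precursor list in the mPFC and below it in the vHipp. Without the vHipp library of mouse 11, the vHipp medians were 0.652 for the precursor list, 0.642 for the astrocyte list, 0.437 for the endothelial list and 0.480 for the microglia list, and Utrn had r = 0.866. The median over all genes was -0.0136 in the mPFC and -0.0548 in the vHipp. Its r with log2 total counts was 0.127 in the mPFC and -0.378 in the vHipp.

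The vHipp library of mouse 11, which stood apart from the others, was high in the same lists. Its summed levels were 2.57 times the median of the other libraries for the astrocyte list, 2.52 times for microglia, 2.24 times for endothelial genes and 1.90 times for precursor genes. Pdgfra, at 107.2 CPM, was 1.95 times the median of the others, while the 8 myelin genes lay between 0.924 times (Opalin) and 1.44 times (Cnp), with Mbp at 1.02 times, and the 29 mature genes summed to 1.28 times. The mPFC library of mouse 1 was the lowest for Mbp, Mobp, Cldn11, Mal, Opalin and Ermn, with Mbp at 0.363 times and Opalin at 0.246 times the median of the others, while its Pdgfra was at 0.899 times.

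Levels in both regions of a mouse were then compared. Across 39 mice, r between the mPFC and the vHipp of the same mouse was negative for all 8 myelin genes, between -0.221 (Mobp) and -0.0878 (Cnp), and was 0.0825 for Pdgfra. For Mbp, r was -0.191 (permutation p = 0.245, adjusted 0.306) and rho was -0.206 (permutation p = 0.207, adjusted 0.233), and r was -0.211 without the 2 mice farthest from the median. None of the 9 passed by either measure. For comparison, the median gene of 15701 had r = 0.277 between regions, with a 5th percentile of -0.103 and a 95th percentile of 0.689. Within the 5 sets, the r of Mbp lay between -0.511 and 0.126. Mouse 22, the highest for Mbp in the mPFC, was not among the 3 highest in the vHipp, and mouse 33, the highest in the vHipp, was among the 3 lowest mPFC libraries for Mobp and Mal.

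**Figure D4:**
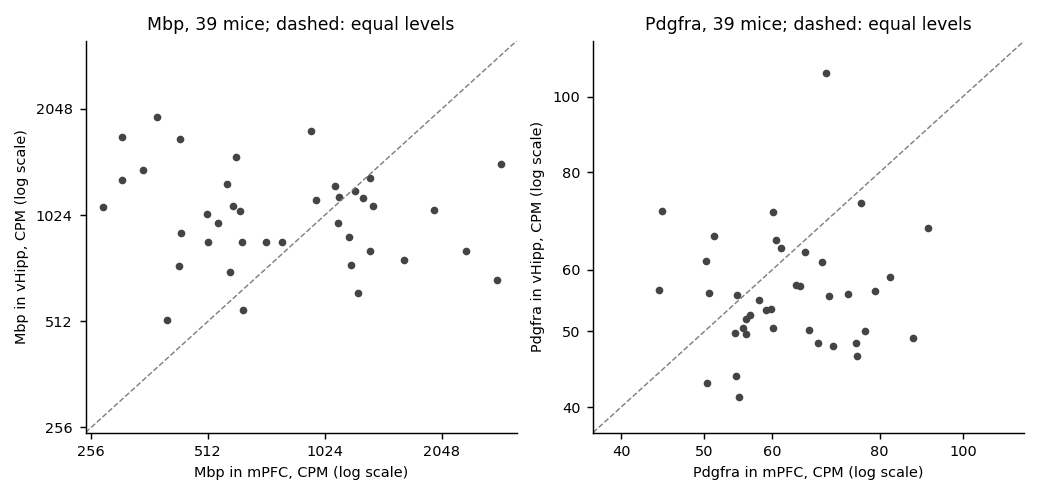
Mbp and Pdgfra in the vHipp against the mPFC of the same mouse, in CPM on log axes, 1 point for each of 39 mice, with a dashed line of equal levels. The points show no rising trend (r = -0.191 for Mbp and 0.0825 for Pdgfra), and Mbp spreads more along the mPFC axis.

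The first comparison asks whether the regions differ in level. By edgeR's quasi-likelihood test over all 79 libraries, Pdgfra was higher in the mPFC by 0.16 on the log2 scale (SE 0.06, adjusted p = 0.0119), with a mean of 63.5 ± 11.3 CPM in the mPFC (SD, n = 39) and 56.7 ± 11.3 CPM in the vHipp (n = 40). It was the only call among the 9, and 48.9% of all 31534 genes tested were called and 53.3% had an unadjusted p under 0.05. Without the vHipp library of mouse 11, the difference was 0.19 (adjusted p = 0.00105). The 8 myelin genes ran from -0.14 (Mag) to 0.28 (Opalin) with SE between 0.13 and 0.19, and their lowest adjusted p was 0.200 (Mal). Paired by mouse, with the mouse as a replicate block, Pdgfra was again the only call (0.16, adjusted p = 0.00809, where 49% of genes were called), and Mbp and Mag came to -0.34 (SE 0.17, adjusted p = 0.0869) and -0.35 (SE 0.17, adjusted p = 0.0825). Mean and median parted in the wide mPFC. The mean of Mobp was 254 CPM in the mPFC and 250 CPM in the vHipp, while its median was 193 against 235.

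The ratios among the myelin genes differed between the regions. Within a mouse, the log2 ratio of Mal to Mbp was higher in the mPFC by 0.37 ± 0.21 (SD over mice), in 36 of 39 mice, and that of Opalin to Mbp by 0.40 ± 0.24, also in 36 of 39 (sign-flip permutation test, adjusted p = 2.67e-05 over 8 ratios for each). The ratio of Cldn11 to Mbp was higher by 0.22 ± 0.23, in 32 of 39 mice (permutation test, adjusted p = 2.67e-05). The ratios of Cnp (0.16), Ermn (0.10) and Mobp (0.09) to Mbp were also higher in the mPFC, in 29, 27 and 26 of 39 mice (permutation test, adjusted p = 0.00176, 0.0012 and 0.0246). The ratio of Mag to Mbp differed by -0.02 ± 0.09 and was higher in the mPFC in 15 of 39 mice (permutation p = 0.164). The ratio of Pdgfra to Mbp was higher by 0.51 ± 1.103, in 26 of 39 mice (permutation test, adjusted p = 0.00868). These ratios were chosen after the values were seen, and all 8 share Mbp as their divisor.

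A fit that held the transcript level of other mature oligodendrocyte genes constant gave the same signs for Mal and Opalin. With the mean standardized level of the 29 other mature genes as a covariate, edgeR called 5 of the 9 between regions, where 49.2% of all genes were called. Mal (0.22, SE 0.03, adjusted p = 6.59e-08), Opalin (0.24, SE 0.06, adjusted p = 0.000554) and Pdgfra (0.18, SE 0.06, adjusted p = 0.00468) were higher in the mPFC. Mbp (-0.18, SE 0.03, adjusted p = 8.71e-08) and Mag (-0.19, SE 0.03, adjusted p = 8.81e-08) were lower. The 29 genes behind the covariate themselves differed between regions, with 5 called higher and 7 lower in the mPFC without it (48.9% of all genes were called), so the sign of a member is relative to their mean. Among them, Enpp2 and Apod were higher in the mPFC by 0.93 each (SE 0.09 and 0.13), and Klk6 was lower (-0.78, SE 0.24). Of the 12 precursor genes, 4 were called higher and 1 lower in the mPFC, where 48.9% of all genes were called, with Susd5 at 1.92 (SE 0.06) and Pcdh15 at 1.78 (SE 0.06).

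The next comparisons ask what the stress did. In the mPFC, the group medians of Mbp were 602 CPM in CTRL mice given saline (379 to 2903), 757 CPM in CTRL mice given ketamine (307 to 1638), 742 CPM in CSDS mice given saline (307 to 2369) and 1112 CPM in CSDS mice given ketamine (275 to 2833). The groups overlapped over most of their range. Averaged over treatments, CSDS against CTRL mice differed by 0.14 for Mbp (SE 0.27, adjusted p = 1.00), with the 8 genes between 0.014 and 0.14, a median of 0.13 and SE between 0.23 and 0.32. Pdgfra differed by 0.0014 (SE 0.08). The median over all genes was -0.00041. Neither the 9 genes nor any other of 28993 passed in edgeR (0% called), and none of the 9 had an unadjusted p under 0.05, where 3.52% of all genes had. DESeq2 and limma-voom called none of the 9 either, and limma-voom gave a median of 0.026 over the 8, with 2 of them negative.

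Within treatments, the fitted differences of the 8 mPFC genes leaned in opposite directions without a call. In saline-treated mice they were all negative in CSDS against CTRL mice, with a median of -0.22 (SE between 0.32 and 0.44), and in ketamine-treated mice all positive, with a median of 0.45 (SE between 0.32 and 0.46). Since the 8 genes move together across libraries, their common sign is no more than a single observation. In saline-treated mice the group medians did not have the fitted sign. Only Mobp had a lower median in CSDS mice (169 against 177 CPM), and the other genes of the 8 had a higher one, as Mbp with 742 against 602 CPM. Without the mPFC library of mouse 1, the median in ketamine-treated mice was 0.59 and that of the average over treatments 0.19, still with none of the 9 called. With the mean level of the 29 other mature genes as a covariate, the median in saline-treated mice was -0.051 with all 8 still negative, and the median in ketamine-treated mice was -0.16 and all 8 were negative, again with no call (lowest adjusted p = 0.751, edgeR). Mal (p = 0.00163) and Opalin (p = 0.0155) had an unadjusted p under 0.05 in that edgeR fit, where 6.56% of all genes had. Signs with the covariate are relative to the mean of the 29 genes. In the fit of the groups alone, none of the 9 had an unadjusted p under 0.05, where 2.94% of all genes had in saline and 5.8% in ketamine. The difference between these effects, the interaction of stress and ketamine, had a median of 0.66 over the 8 genes (0.57 to 0.71, SE between 0.45 and 0.64, lowest unadjusted p = 0.212, edgeR) and was 0.016 for Pdgfra (SE 0.16). Without mouse 1 the median was 0.80. In this fit none of the 9 had an unadjusted p under 0.05, where 5.31% of all genes had. With the covariate the median was -0.12, with 7 of the 8 negative, and Mal alone had such a p (0.0441, adjusted p = 0.838, edgeR), where 5.73% of all genes had.

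Ketamine against saline gave no call in the mPFC. The median of the 8 genes was -0.19 in CTRL mice (background 3.64% of all genes at an unadjusted p under 0.05), 0.45 in CSDS mice (4.32%) and 0.14 averaged over stress groups (3.07%). None of the 9 had such a p in any of these. By limma-voom the median of the 8 was -0.077 in CTRL mice and 0.47 in CSDS mice. In CTRL mice the group medians of all 8 genes were higher after ketamine, opposite to the fitted sign, as for Mbp with 757 CPM against 602 CPM after saline. Without the mPFC library of mouse 1, the edgeR median of the 8 was 0.58 in CSDS mice and 0.21 averaged, again with none of the 9 called. With the same covariate the signs turned, to a median of 0.035 in CTRL mice (6 of the 8 positive), -0.075 in CSDS mice (7 of the 8 negative) and -0.015 averaged, with none of the 9 called or at an unadjusted p under 0.05. Pdgfra differed by -0.07, -0.05 and -0.06 (SE between 0.08 and 0.11).

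The vHipp groups lay closer together. The group medians of Mbp were 969 CPM in CTRL mice given saline (705 to 1941), 948 CPM in CTRL mice given ketamine (616 to 1498), 1052.4 CPM in CSDS mice given saline (515 to 1772) and 1067.6 CPM in CSDS mice given ketamine (550 to 1303). Averaged over treatments, CSDS against CTRL mice differed by 0.0047 for Mbp (SE 0.13) and by between -0.11 (Cldn11) and 0.013 (Cnp) for the 8, with a median of -0.05. None of the 9 had an unadjusted p under 0.05, where 9.71% of all 28991 genes had and 0% were called after adjustment. DESeq2 called 14 genes there, none of them among the 9. In saline-treated mice the median of the 8 was -0.015 (background 5.57%), in ketamine-treated mice -0.07 (5.42%), and for the interaction of stress and ketamine -0.05 (2.84%), again with none of the 9. With the covariate of the 29 mature genes, Mal had an unadjusted p under 0.05 in ketamine-treated mice (-0.17, SE 0.07, p = 0.0222, adjusted p = 0.908, edgeR), where 5.48% of all genes had.

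No gene of the 9 was called after ketamine in the vHipp. The median difference of the 8, fitted as ketamine minus saline, was -0.15 in CTRL mice (background 2.88%), -0.22 in CSDS mice (2.9%) and -0.18 averaged over stress groups (3.39%), with SE of the average between 0.12 and 0.19. The lowest unadjusted p of the 8 in the average was 0.106 (edgeR). The group medians did not all have this sign, as for Mbp in CSDS mice, with 1052.4 CPM after saline and 1067.6 CPM after ketamine. With the covariate of the 29 mature genes, the median of the 8 in this average was -0.03, and Mobp alone of the 9 had an unadjusted p under 0.05 (-0.09, adjusted p = 1.00, edgeR), where 4.16% of all genes had.

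Of the comparisons within a region, Pdgfra had its lowest p in CSDS against CTRL mice of the vHipp. Its median was 54.2 CPM (43.0 to 67.8) in CTRL mice given saline, 50.4 CPM (48.3 to 73.0) in CTRL mice given ketamine, 55.9 CPM (43.8 to 71.0) in CSDS mice given saline and 58.0 CPM (41.2 to 107.2) in CSDS mice given ketamine. The groups overlapped. Averaged over treatments, CSDS against CTRL mice differed by 0.13 (SE 0.08, unadjusted p = 0.0861, adjusted p = 0.575, edgeR), and by 0.08 without the vHipp library of mouse 11. The 12 other precursor genes had a median of 0.16 in the same comparison, and 5 of them (Cspg4, Vcan, Gpr17, Cacng4 and Neu4) had an unadjusted p under 0.05, all higher in CSDS mice, where 9.71% of all genes had, but none passed the adjustment. Without mouse 11 the median was 0.11 and 2 of the 12 had such a p, where 8.53% of all genes had. The medians of the astrocyte, microglia and endothelial lists were also positive without that library, at 0.14, 0.18 and 0.20. No gene was called by edgeR in that fit, and the part of these lists in the precursor values was not tested.

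The effect of stress was also compared between the regions. The difference of the effect, mPFC minus vHipp, had a median of 0.17 over the 8 genes (0.08 to 0.26, SE between 0.26 and 0.37) and was -0.12 for Pdgfra (SE 0.11). Nothing was called among 31534 genes (0%), and none of the 9 had an unadjusted p under 0.05, where 6.86% of all genes had. With the mouse as a replicate block the median of the 8 was 0.07, and without the mPFC library of mouse 1 it was 0.24. With the level of the 29 mature genes as a covariate it was 0.0063, with 4 of the 8 positive and 4 negative.

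With the covariate of the 29 mature genes, the SE of Mbp in the mPFC went from 0.27 to 0.05. The covariate was measured in the same libraries and takes up any change shared with the 29 genes. Signs with the covariate are therefore relative to their mean. In that fit CSDS against CTRL mice of the mPFC, averaged over treatments, gave values between -0.22 (Opalin) and -0.011 (Pdgfra), and no gene was called. An unadjusted p under 0.05 was found for Opalin (-0.22, SE 0.09, unadjusted p = 0.0125), Mal (-0.13, SE 0.05, p = 0.00804) and Cnp (-0.07, SE 0.03, p = 0.0129 by edgeR), 3 of the 9, where 3.8% of all genes had such a p. None passed the adjustment (adjusted p = 1.00 for each). In the vHipp the 8 myelin genes had values between -0.12 (Mal) and -0.0074 (Cnp), also without a call. Mal (-0.12, SE 0.05, unadjusted p = 0.0231) and Mobp (-0.10, SE 0.04, p = 0.0239, edgeR) had an unadjusted p under 0.05, where 10% of all genes had. Their adjusted p was 0.420 and 0.423. Pdgfra came to 0.12 (SE 0.07) in the vHipp, against 0.13 without the covariate. In the mPFC it came to -0.011 (SE 0.08), against 0.0014.

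**Figure D5:**
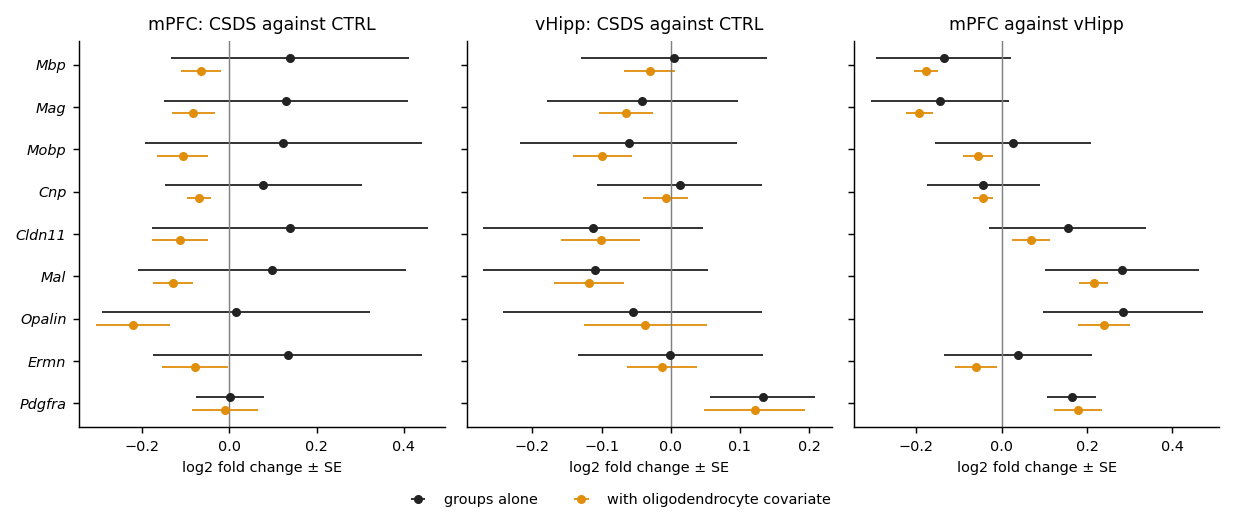
Log2 fold change of each gene with its SE (bars), for CSDS against CTRL mice in each region, averaged over treatments, and for mPFC against vHipp, from the fit of the groups alone (black) and with the oligodendrocyte covariate (orange). The orange bars are shorter for the 8 myelin genes and lie left of 0 in the mPFC, while Pdgfra shifts little. Between regions Mal and Opalin lie right of 0 and Mbp and Mag left.

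No gene of the other lists of the lineage passed the adjustment between CSDS and CTRL mice. In the mPFC, CSDS against CTRL mice differed by a median of 0.11 over the 29 mature genes, 0.03 over the 7 lineage factors and 0.02 over the 12 precursor genes, and the unadjusted p fell under 0.05 for 1, 0 and 0 of them, where 3.52% of all genes had such a p. In the vHipp the medians were 0.0064, 0.07 and 0.16, with such a p for 2 (higher), 1 (lower) and 5 (higher) of them, where 9.71% of all genes had it. The 12 genes of cholesterol synthesis had a median of 0.09 there, with 3 of them higher by that criterion. Medians over all genes were -0.00041 and -0.0025.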

How the data were processed

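RNA was extracted from tissue punches, libraries were made with a stranded mRNA kit and sequenced on a NovaSeq X Plus. Per the labels, reads were converted with bcl2fastq 2.20.0.422, and the genome was GRCm38. Which aligner and counter were used is not given in the sources used here. The authors deposited raw read counts per gene for 79 libraries, with gene positions and exonic lengths, and without normalization. Of 55471 identifiers, 55144 carry a symbol. Column names were matched to samples through the library names in the labels.

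Groups came from the labels. The study's own model, in DESeq2, had a covariate of social group that the labels do not give, and left out an outlier it does not name. Here edgeR 4.0.16 (quasi-likelihood test, TMM factors, genes with more than 10 counts in total and more than 3 libraries with a count) was fitted to all groups of a region, or to all 8 groups for comparisons between regions, with Benjamini-Hochberg adjustment over all genes tested and a threshold of 0.05. The edgeR and DESeq2 fits were tested on simulated counts. DESeq2 1.42.0, limma 3.58.1, other factors and filters, the set of mouse numbers, the oligodendrocyte covariate and a replicate block were alternatives. The mouse number pairs the regions, since both came from the same animal: over 15701 genes, deviations of the 2 libraries of a mouse had a median r of 0.263, against -0.00302 for libraries of different mice. P-values within a region measure the spread between mice, taken as independent. Per the paper, stress was given to whole social groups of cage mates, so mice of a social group are not fully independent. The main fit between regions took the 2 libraries of a mouse as independent, and only the replicate block paired them.

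Levels are CPM, counts scaled to a library total of 1e6, with TMM factors between 0.930 and 1.08, and correlations used log2(CPM + 0.5) with 100000 permutations. Fold changes are on the log2 scale. Genes named are the 9, the listed marker genes, and the 10 genes per region most like the mean of the 8. Genes most like Pdgfra are named too, as is Dnajc7, which overlaps Cnp. Some of these are not reported here. The 9 genes and the lists were chosen with earlier results of these data known, so that their counts are descriptions. The spread, the ratios to Mbp, the genes most like Pdgfra and the fits without a library were chosen after the values were seen.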

Additional observations from a re-analysis of the deposited data

How the results depend on the processing

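The number of the 9 genes called was 0 in 15 of the 16 comparisons, so that it could hardly move there and says nothing of stability. In mPFC against vHipp it was 5 with the oligodendrocyte covariate, the level of the 29 mature genes, in place of 1. By Pearson's r, 28 or 29 of 36 pairs of the 9 genes were correlated within each region in the alternatives run, and by Spearman's rho 29 in the mPFC and 28 in the vHipp. No gene of the 9 was related between regions in any of them. With the mouse as a replicate block the count called between regions was 1 and that for the difference of the stress effect between regions was 0, so the pairing changed no call, and leaving out the mPFC library of mouse 1 or the vHipp library of mouse 11 changed no call either (0 within regions and 1 between regions). The depth of at least 11726129 counts gave Opalin the fewest counts of the 9, at least 42 in a library.

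No gene that changed sign was called in either fit. The cause was not tested. In mPFC against vHipp, limma-voom gave -0.25 for Mobp, -0.12 for Cldn11 and -0.25 for Ermn. The replicate block gave -0.24 for Mobp, -0.10 for Cldn11 and -0.21 for Ermn. The set of mouse numbers gave -0.018 for Mobp and -0.0096 for Ermn, and the oligodendrocyte covariate -0.055 for Mobp and -0.059 for Ermn. In CSDS against CTRL mice of the mPFC, the covariate gave -0.065 for Mbp, -0.083 for Mag, -0.11 for Mobp, -0.070 for Cnp, -0.11 for Cldn11, -0.13 for Mal, -0.22 for Opalin, -0.079 for Ermn and -0.011 for Pdgfra. In that comparison limma-voom gave -0.0029 for Mal, -0.17 for Opalin and -0.0012 for Pdgfra, and Pdgfra came to -8.12e-05 with RLE factors and -0.00032 with filterByExpr. For ketamine in the mPFC, averaged, the covariate gave -0.014 for Mbp, -0.058 for Mobp, -0.017 for Cnp, -0.054 for Cldn11 and -0.053 for Opalin. In CSDS against CTRL mice of the vHipp, Ermn came to 0.0091 by DESeq2, 0.0044 with RLE factors, 0.0068 with filterByExpr and 0.0026 without a filter. There the set of mouse numbers gave -0.016 for Mbp and -0.0013 for Cnp, the covariate -0.031 for Mbp and -0.0074 for Cnp, and leaving out mouse 11 gave -0.012 for Cnp. For ketamine in the vHipp, averaged, the covariate gave 0.021 for Cnp and 0.059 for Opalin. Pdgfra in the mPFC, under stress in saline, came to 0.00093 without a filter and 0.0038 with the covariate. Under stress in ketamine it came to -0.000301 without a filter, -0.0011 by limma-voom and -0.025 with the covariate. Its interaction of stress and ketamine came to -0.0012 without a filter and -0.029 with the covariate in the mPFC, and to -0.031 without mouse 11 in the vHipp.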
